A study of Pleurotus tuoliensis with 2 samples.

Results

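Among the 17030 unigenes assembled from mycelia of *Pleurotus tuoliensis*, an edible mushroom, 10 were matched in Swiss-Prot to oxalate decarboxylase, formate dehydrogenase or glutamate decarboxylase. The 7 of these described here are 3 oxalate decarboxylase unigenes (TRINITY_DN8634_c0_g1, TRINITY_DN5993_c1_g1 and TRINITY_DN5993_c1_g5), 1 formate dehydrogenase unigene (TRINITY_DN6331_c0_g1) and 3 glutamate decarboxylase unigenes (TRINITY_DN579_c0_g1, TRINITY_DN4380_c0_g1 and TRINITY_DN9312_c0_g2), named below without the assembler's prefix. They were chosen by these protein names and by their measured levels in the same 6 libraries, with the difference between immature and mature mycelia already known. Their levels and log2 ratios are therefore given as a description, without a test. A unigene is the longest isoform of an assembled subcomponent, and several unigenes can be pieces of 1 gene.

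Both groups were the strain ACCC 50869 grown in the dark in bottles of 820 g of substrate. Immature mycelia were taken from 3 bottles at day 0, after 37 days at 25 °C, and mature mycelia from 3 other bottles at day 35 of a following phase at 17 °C. Maturity, temperature and culture age changed together and cannot be told apart. RNA was taken from whole mycelium, in which fewer cells of a kind and less RNA per cell cannot be told apart.

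Levels are FPKM, fragments per kilobase of unigene, scaled to the mapped fragments of the library, which allows levels to be compared between unigenes, although in short unigenes each fragment weighs more. FPKM summed to between 1206300 and 1238510 per library. The table holds no read counts, so the number of fragments behind a value is unknown. On the first principal component, which held 41.0% of the variance of 11839 unigenes, mature bottle 1 scored 6.14, the other mature bottles 26.6 and 29.3, and the immature bottles −27.2 to −16.0. Mature bottle 1 thus lay nearest to the immature bottles, and the log2 ratio without it is given for each of the 7 unigenes and for those others whose sign it turned. The 9 unigenes named hydrophobin or fruiting body protein SC, which coat aerial hyphae, were above 0 in every bottle and summed to 671 to 814 FPKM in immature and 551 to 570 FPKM in mature mycelia.

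Oxalate is a small dicarboxylic acid that many wood-decaying fungi secrete, where it binds metal ions such as calcium and manganese and acidifies the substrate. Oxalate decarboxylase, a manganese enzyme of the cupin fold, splits oxalate into formate and carbon dioxide, and formate dehydrogenase oxidises formate to carbon dioxide while reducing NAD. Glutamate decarboxylase, a pyridoxal phosphate enzyme, removes a carboxyl group from glutamate to give 4-aminobutyrate (GABA), the entry to a side path that returns carbon to the citric acid cycle as succinate. All 3 enzymes release a carboxyl group as carbon dioxide, and they are taken here in the order of oxalate, formate and glutamate.

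Of the oxalate decarboxylases, DN8634_c0_g1 had the highest mature level, and its mature bottles lay far apart. This unigene of 2923 bases, matched to OxdC of *Bacillus subtilis*, stood at 40.04, 24.93 and 33.56 FPKM in immature bottles 1, 2 and 3, against 40.08, 121.15 and 93.51 FPKM in the mature bottles in that order. Mature bottles 2 and 3 were high, whereas mature bottle 1 lay 0.04 FPKM above the highest immature bottle, so the groups did not overlap but touched. The means were 32.8 ± 7.58 and 84.9 ± 41.2 FPKM (SD, n = 3), a ratio of 2.59. On the log2(FPKM + 1) scale, used for every log2 ratio here, the mature minus immature difference was 1.23 (SE 0.42). It was 1.69 (SE 0.24) without mature bottle 1 and 0.91 without mature bottle 2.

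DN5993_c1_g1, a unigene of 1266 bases, carries the annotations oxalate metabolic process and nutrient reservoir activity, the latter a term given to proteins of the cupin fold. It stood at 12.04, 10.8 and 14.22 FPKM in immature against 8.56, 18.53 and 17.25 FPKM in mature bottles 1, 2 and 3. The lowest and the highest value were both from mature bottles, so the groups overlapped. The means were 12.4 ± 1.73 and 14.8 ± 5.42 FPKM (SD, n = 3), with a log2 ratio of 0.18 (SE 0.30). Without mature bottle 1 the log2 ratio was 0.51 (SE 0.16), and without mature bottle 2 it was −0.01.

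Both of these unigenes were lowest among the mature bottles in bottle 1, by −0.92 and −0.65 from the mature mean on the log2 scale. The level of DN8634_c0_g1 per bottle was 2.31 to 3.33 times that of DN5993_c1_g1 in immature mycelia and 4.68 to 6.54 times in mature mycelia. This ratio within a bottle did not overlap between the groups, even though mature bottle 1 was low for both unigenes.

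DN5993_c1_g5, of 267 bases, was listed at 0 in 2 of 6 libraries and could not be placed in either direction. It stood at 7.91, 0 and 7.51 FPKM in immature against 3.3, 0 and 10.56 FPKM in mature bottles 1, 2 and 3. The smallest value above 0 among 231 unigenes of about this length was 2.40 to 3.55 FPKM per library, so these values rest on few fragments. The log2 ratio was −0.20 (SE 1.21), and it was −0.32 without mature bottle 1 and ranged from −1.24 to 0.74 when each bottle was left out in turn. DN5993_c1_g1 and DN5993_c1_g5 came from 1 assembled component but were matched in the Nr protein database to different proteins, so they may or may not be parts of 1 gene.

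**Figure D1:**
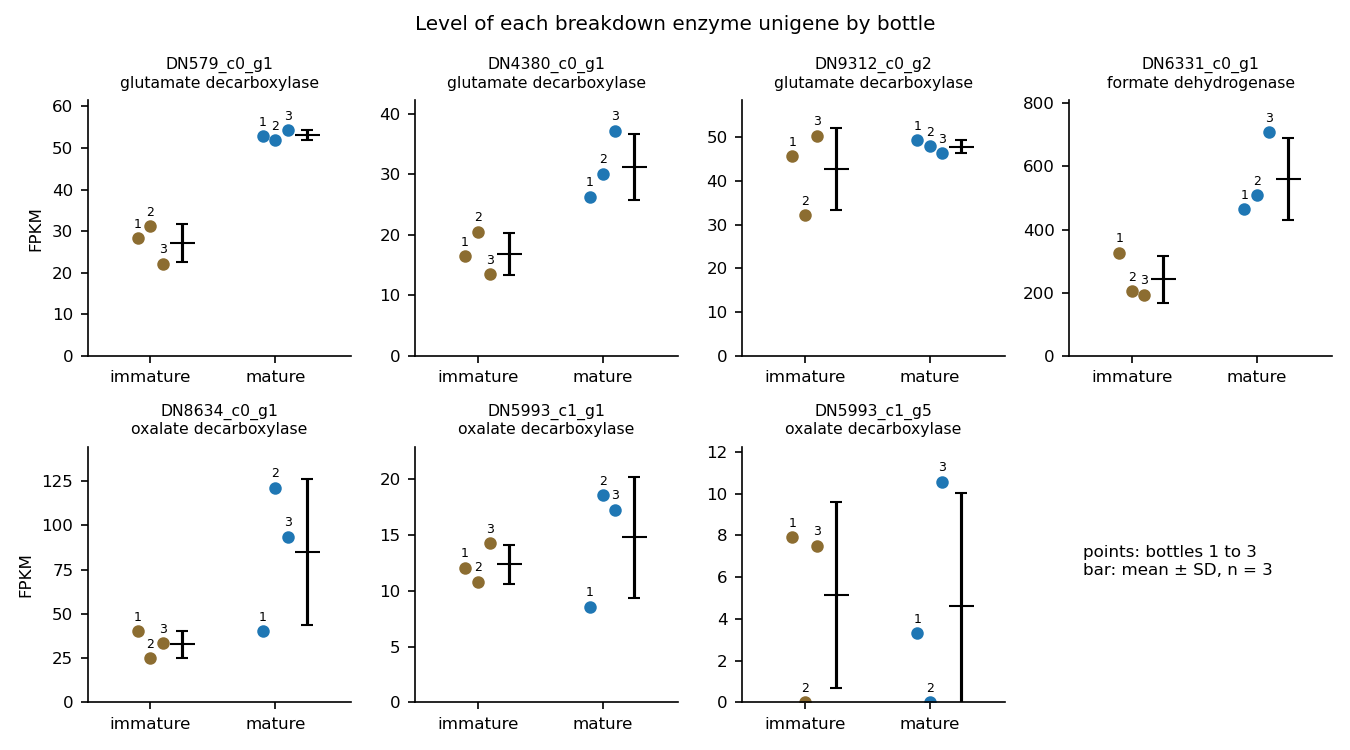
FPKM (vertical axis, linear, own scale in each panel) of the 7 unigenes in immature and mature bottles, with each point 1 bottle labelled 1 to 3 and the bar the mean ± SD (n = 3, cut off at 0 for DN5993_c1_g5). The groups lie apart for DN579_c0_g1, DN4380_c0_g1 and DN6331_c0_g1, touch for DN8634_c0_g1 at 40.04 and 40.08 FPKM, and overlap for the other 3.

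The remaining 3 oxalate decarboxylase unigenes, DN1349_c0_g1, DN5726_c1_g3 and DN107_c0_g1, are not among the 7. All 3 were matched to 1 Nr protein, and their groups overlapped. DN1349_c0_g1 stood at 50.23, 26.95 and 33.82 FPKM in immature bottles 1, 2 and 3 against 35.36, 38.85 and 24.15 FPKM in mature ones, a log2 ratio of −0.15 (SE 0.28, limma adjusted p = 0.823). DN5726_c1_g3 averaged 28.7 ± 8.48 and 29.4 ± 4.35 FPKM (SD, n = 3), a log2 ratio of 0.06 (SE 0.23, limma adjusted p = 0.919) that was −0.00 without mature bottle 1. DN107_c0_g1 averaged 16.3 ± 9.34 and 13.7 ± 7.77 FPKM, with a log2 ratio of −0.24 (SE 0.51, limma adjusted p = 0.848). None of the 3 passed the test, and each standard error leaves room for a difference in either direction.

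Over all 6 oxalate decarboxylase unigenes, which were matched to 4 Nr proteins, FPKM summed to 175.69, 95.71 and 125.66 in immature and to 131.25, 232.68 and 176.9 in mature bottles 1, 2 and 3. Immature bottle 1 lay above mature bottle 1 and close to mature bottle 3, so the family sums overlapped. DN8634_c0_g1 made up 22.8%, 26.0% and 26.7% of the sum in immature and 30.5%, 52.1% and 52.9% in mature bottles 1, 2 and 3. The shares thus did not overlap between the groups, whereas the sums did, with means of 132 ± 40.4 and 180 ± 50.8 FPKM (SD, n = 3). The share was lowest among the mature bottles in bottle 1. Because 3 of the 6 summed unigenes were matched to 1 Nr protein, a gene assembled in pieces can enter the sums more than 1 time. The sums and shares are thus those of unigenes and not of genes.

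**Figure D2:**
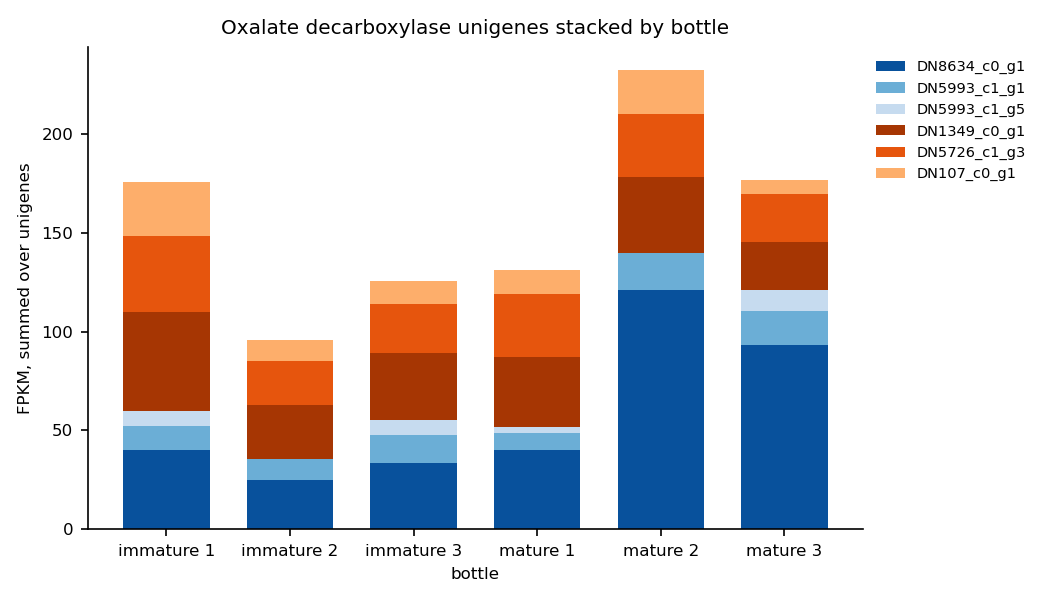
Stacked FPKM (vertical axis, linear from 0) of the 6 oxalate decarboxylase unigenes in each of the 6 bottles (horizontal axis), blue for the 3 described here and orange for the other 3. DN8634_c0_g1, the lowest block, takes 22.8% to 26.7% of the sum in immature bottles and 30.5% to 52.9% in mature bottles. The 3 in orange were matched to the same Nr protein and can be pieces of the same gene.

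Formate dehydrogenase, the enzyme that uses the formate made from oxalate, was the most abundant of the 7. DN6331_c0_g1, of 611 bases and matched to the enzyme of *Neurospora crassa*, was the 1 unigene with this name, and its annotations were formate catabolic process, NAD binding and the cytosol. It stood at 327.1, 205.63 and 193.8 FPKM in immature against 464.03, 509.68 and 708.89 FPKM in mature bottles 1, 2 and 3. Every mature bottle lay above every immature bottle, and among all 17030 unigenes it ranked 507, 886 and 980 in immature and 322, 307 and 215 in mature bottles 1, 2 and 3. The means were 242 ± 73.8 and 561 ± 130 FPKM (SD, n = 3), a ratio of 2.32 and a log2 ratio of 1.22 (SE 0.26). The log2 ratio ranged from 1.04 to 1.46 when each bottle was left out in turn and was 1.35 without mature bottle 1.

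DN6331_c0_g1 shared its assembled component with DN6331_c0_g2, which was matched to the histone acetyltransferase gcn5, a chromatin enzyme. DN6331_c0_g2 stood at 144.31, 121.24 and 94.56 FPKM in immature against 226.07, 211.54 and 276.83 FPKM in mature bottles 1, 2 and 3, with a log2 ratio of 0.99 (SE 0.19). The level of the formate dehydrogenase unigene was 1.70 to 2.56 times that of its neighbour in the 6 bottles. Whether the 2 unigenes share reads was not tested.

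The summed glutamate decarboxylases had the smallest spread of the 3 families relative to their mean. DN579_c0_g1, of 499 bases and matched to the yeast enzyme, stood at 28.3, 31.19 and 22.14 FPKM in immature against 52.85, 51.9 and 54.29 FPKM in mature bottles 1, 2 and 3. The mature bottles lay within a few FPKM of each other and well above the highest immature bottle. The means were 27.2 ± 4.62 and 53.0 ± 1.20 FPKM (SD, n = 3), a ratio of 1.95 and a log2 ratio of 0.95 (SE 0.14), which was 0.95 without mature bottle 1 too. Its place among all unigenes went from the 44.7th to 55.8th percentile in immature to the 71.7th to 73.4th percentile in mature bottles.

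DN4380_c0_g1, of 517 bases, was matched to the same Nr protein as DN579_c0_g1. It stood at 16.45, 20.49 and 13.49 FPKM in immature against 26.32, 30.11 and 37.19 FPKM in mature bottles 1, 2 and 3. The groups did not overlap, with means of 16.8 ± 3.51 and 31.2 ± 5.52 FPKM (SD, n = 3) and a log2 ratio of 0.86 (SE 0.20), or 0.97 without mature bottle 1. DN579_c0_g1 was 1.46 to 2.01 times as high as DN4380_c0_g1 in every bottle, with a mean ratio of 1.63 ± 0.0997 in immature and 1.73 ± 0.274 in mature mycelia (SD, n = 3). The pair rose together between the groups, but among mature bottles 1, 2 and 3 the ratio fell, at 2.01, 1.72 and 1.46. Whether the pair are pieces of 1 gene cannot be told from the table, so they are not separate evidence.

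DN9312_c0_g2, the long glutamate decarboxylase unigene of 4288 bases, had overlapping groups. It was matched to another Nr protein, and its annotations named RNA polymerase activity and transcription beside glutamate decarboxylase activity. It stood at 45.65, 32.2 and 50.36 FPKM in immature against 49.31, 47.91 and 46.39 FPKM in mature bottles 1, 2 and 3. Immature bottle 3 was the highest and immature bottle 2 the lowest of all 6. The means were 42.7 ± 9.42 and 47.9 ± 1.46 FPKM (SD, n = 3), with a log2 ratio of 0.18 (SE 0.18) that was 0.16 without mature bottle 1 and −0.00 without immature bottle 2.

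DN579_c0_g1 stood at 0.620, 0.969 and 0.440 times the level of DN9312_c0_g2 in immature bottles 1, 2 and 3, and at 1.07, 1.08 and 1.17 times in mature bottles 1, 2 and 3. The order of these 2 unigenes thus turned round between the groups in every bottle. Summed over the 3 unigenes, glutamate decarboxylase stood at 90.4, 83.88 and 85.99 FPKM in immature against 128.48, 129.92 and 137.87 FPKM in mature bottles. The sums lay far apart between the groups compared with their spread, at 86.8 ± 3.33 and 132 ± 5.06 FPKM (SD, n = 3), a ratio of 1.52. If DN579_c0_g1 and DN4380_c0_g1 are pieces of the same gene, that gene is counted more than 1 time in these sums and weighs more in the ratio.

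Ordered by mean level in immature mycelia, the 7 unigenes were DN6331_c0_g1, DN9312_c0_g2, DN8634_c0_g1, DN579_c0_g1, DN4380_c0_g1, DN5993_c1_g1 and DN5993_c1_g5. The ranges of DN9312_c0_g2 and DN8634_c0_g1 overlapped, as did those of DN8634_c0_g1 and DN579_c0_g1 and those of DN4380_c0_g1 and DN5993_c1_g1, so the order within these pairs does not exceed the spread. In mature mycelia the means of DN8634_c0_g1 and DN579_c0_g1 both lay above that of DN9312_c0_g2. The range of DN8634_c0_g1 overlapped there with those of DN579_c0_g1 and DN9312_c0_g2, and in mature bottle 1 it was the lowest of these 3. The ranges of DN5993_c1_g1 and DN5993_c1_g5 overlapped as well, while DN6331_c0_g1 was above all the others in every bottle.

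The deviations from the group means differed between the unigenes in mature bottle 1. On the log2 scale that bottle lay −0.92 from the mature mean for DN8634_c0_g1, −0.65 for DN5993_c1_g1, −0.25 for DN6331_c0_g1 and −0.22 for DN4380_c0_g1. For DN579_c0_g1 and DN9312_c0_g2 it lay at −0.00 and 0.04. Among these 6 it was thus furthest below the mean in the oxalate decarboxylases DN8634_c0_g1 and DN5993_c1_g1. Other oxalate decarboxylases did not share this, since DN1349_c0_g1 stood at 35.36 FPKM in mature bottle 1 against 38.85 and 24.15 FPKM in bottles 2 and 3, and DN5726_c1_g3 at 32 against 31.92 and 24.43 FPKM. Over the 6 bottles, with each unigene centred on its own mean, the root mean square difference was smallest between DN579_c0_g1 and DN4380_c0_g1 (0.144), followed by DN579_c0_g1 and DN6331_c0_g1 (0.319). DN8634_c0_g1 came nearest to DN6331_c0_g1 (0.449) and not to its namesake DN5993_c1_g1 (0.572).

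All 7 unigenes had a mean FPKM above 1 and entered the table of 16496 unigenes tested with limma. Their median log2 ratio was 0.86, with a range of −0.20 to 1.23, and 6 of 7 were above 0, beside a median of −0.07 and 42.3% above 0 over all unigenes tested. In 4 of 7 every mature bottle lay above every immature bottle, and in 0 of 7 below, beside 8.69% and 14.2% of all unigenes tested. A log2 ratio of 1 or more was reached by 2 of 7, beside 3.88% of all unigenes tested. Under the thresholds of the study (unadjusted p ≤ 0.05 and a log2 ratio of 1 or more in either direction), 1.18% of all unigenes tested were called higher and 1.82% were called lower in the mature group. A Benjamini-Hochberg adjusted p under 0.05 was reached by 0.0667% of them, which is 11 unigenes. Nothing is read from these counts about the 7, because the same contrast was used to choose them.

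The other enzymes that make, use or lie next to oxalate, formate and glutamate were taken from 3 lists of enzyme names looked for in Swiss-Prot, which gave 68 further unigenes matched to 51 Nr proteins. By the study's thresholds 0 of these were called higher and 3 lower in mature bottles, a share of 4.41% beside the 1.82% of all unigenes tested. The lists were chosen with earlier results of these data known, so nothing is read from their shares beside those of all unigenes tested. At an adjusted p under 0.05 (limma, Benjamini-Hochberg over 16496 unigenes) 0 of 68 passed, whereas 15 had an unadjusted p under 0.05. Of these, 5 were higher and 10 lower, or 7.35% and 14.7% of the lists, beside 6.09% and 9.33% of all unigenes tested. The median log2 ratio of the 68 was −0.01. Every mature bottle lay above every immature bottle in 7 of them and below in 12, or 10.3% and 17.6%, beside 8.69% and 14.2% of all unigenes tested. An exact permutation test on 1 unigene could reach no p smaller than 0.1 with 3 bottles in each group.

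**Figure D3:**
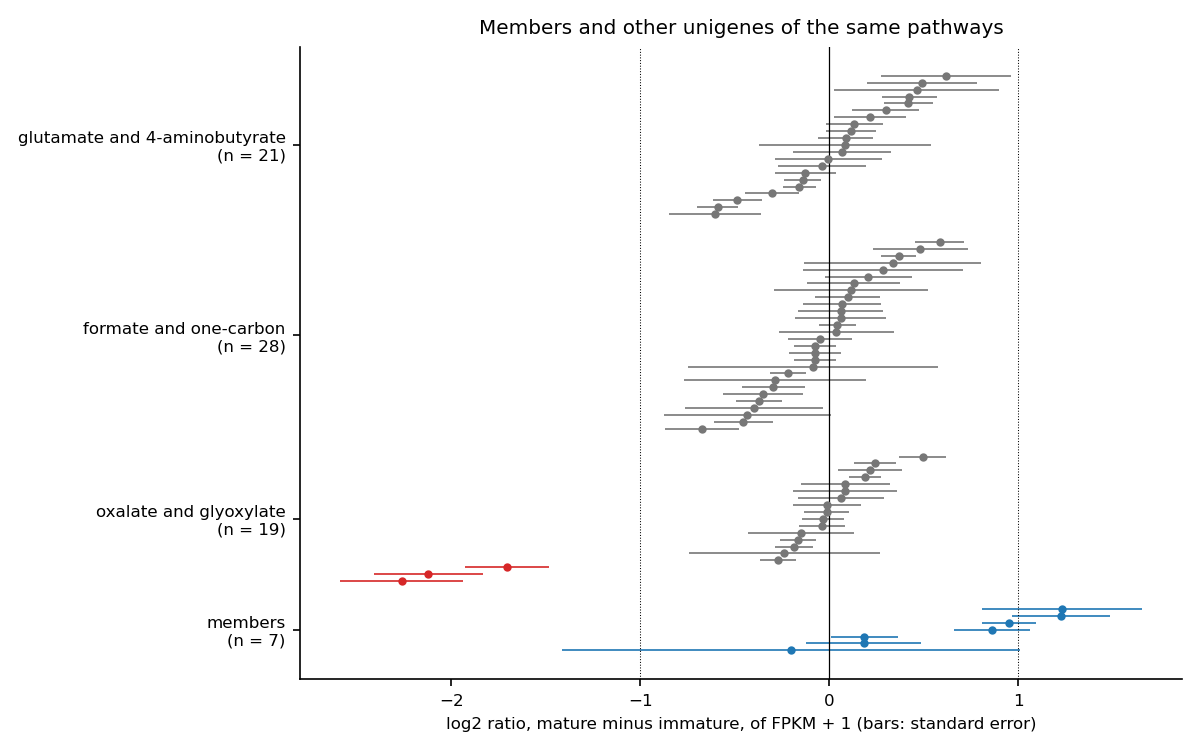
Log2 ratio of FPKM + 1, mature minus immature (horizontal axis; bars show the standard error), of the 7 unigenes in blue and of the other 68 unigenes of the 3 lists, with red marking those past the study's thresholds and dotted lines at −1 and 1. The 3 red unigenes, at −2.26, −2.12 and −1.70, are flavocytochromes b2, and the other 65 lie between −0.67 and 0.62.

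All 3 lower unigenes were matched to mitochondrial cytochrome b2, a flavocytochrome b2 of the family of flavin enzymes that oxidise L-lactate or glycolate. They stood in the list of 19 unigenes for oxalate and glyoxylate by this name alone. Whether they act in oxalate or glyoxylate metabolism was not tested. That list had 0 higher and 3 lower, with a median log2 ratio of −0.03. DN8918_c1_g3 stood at 271.17, 179.47 and 126.47 FPKM in immature against 48.04, 42.07 and 34.95 FPKM in mature bottles 1, 2 and 3, giving a log2 ratio of −2.12 (SE 0.29, limma adjusted p = 0.0886). Every mature bottle lay far below every immature bottle. DN6330_c1_g1 stood at 68.71, 38.07 and 32.64 FPKM in immature against 6.4, 11.18 and 8.2 FPKM in mature bottles, giving a log2 ratio of −2.26 (SE 0.33, limma adjusted p = 0.0915). DN8870_c0_g7 stood at 22.39, 17.13 and 15.52 FPKM in immature against 3.77, 5.16 and 5.89 FPKM in mature bottles, giving a log2 ratio of −1.70 (SE 0.22, limma adjusted p = 0.0846).

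DN6330_c1_g1 and DN8870_c0_g7 were matched to 1 Nr protein and can be pieces of 1 gene. After adjustment over the whole table none of the 3 had a p under 0.05. Over 17 alternative settings their adjusted p ranged from 0.0240 to 0.351, with the lowest values (0.0240 to 0.0320) among unigenes of at least 500 bases alone. The other 2 flavocytochrome b2 unigenes did not pass. DN8655_c0_g1 had means of 109 ± 11.5 and 106 ± 9.49 FPKM (SD, n = 3), and DN8918_c1_g2, from the same component as DN8918_c1_g3, had 71.1 ± 3.49 and 62.4 ± 5.08 FPKM. These last 2 were picked with their values in view.

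The remaining enzymes of that list lay closer together. Isocitrate lyase, which makes glyoxylate and succinate from isocitrate, averaged 179 ± 7.44 FPKM in immature against 148 ± 9.73 FPKM in mature bottles (DN9069_c1_g1, log2 ratio −0.27, limma adjusted p = 0.270). Pyruvate carboxylase, which supplies oxaloacetate, was the most abundant. DN6849_c0_g3 averaged 115 ± 1.73 and 164 ± 23.5 FPKM (SD, n = 3), with a log2 ratio of 0.49 (SE 0.13, limma adjusted p = 0.190), the highest of the list among unigenes of mean FPKM of at least 5. DN3997_c0_g1 and DN6849_c0_g1 had log2 ratios of 0.19 and 0.24 (limma adjusted p = 0.346 and 0.365). The groups overlapped in the other 2 of the 5 pyruvate carboxylase unigenes, DN3997_c0_g2 with a log2 ratio of −0.01 (limma adjusted p = 0.964) and DN6813_c0_g1 with −0.17 (limma adjusted p = 0.446), both picked with their values in view. DN3997_c0_g1, DN3997_c0_g2 and DN6849_c0_g3 were matched to 1 Nr protein. None of the 5 passed the adjusted test.

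In the list of 28 unigenes for formate and one-carbon metabolism, 0 were higher and 0 lower at the study's thresholds, and the median log2 ratio was −0.01. The highest log2 ratio was that of methylenetetrahydrofolate dehydrogenase, which oxidises a folate-bound one-carbon unit (DN7348_c0_g1). It averaged 22.4 ± 1.87 FPKM in immature against 34.1 ± 3.84 FPKM in mature bottles (SD, n = 3), a log2 ratio of 0.58 (SE 0.13, limma adjusted p = 0.168). The lowest was that of S-(hydroxymethyl)glutathione dehydrogenase, an enzyme of the path from formaldehyde to formate. This unigene, DN3680_c0_g1, averaged 110 ± 29.0 and 67.0 ± 5.99 FPKM, with a log2 ratio of −0.67 (SE 0.20, limma adjusted p = 0.217), and is only 273 bases long. A longer unigene matched to the same Nr protein, DN3680_c0_g2, had 264 ± 34.7 and 216 ± 35.0 FPKM, with overlapping groups (log2 ratio −0.30, limma adjusted p = 0.432). DN7948_c0_g1, a putative glutathione-dependent formaldehyde-activating enzyme listed under the same enzyme, went the other way. It had 51.5 ± 2.85 and 66.7 ± 3.24 FPKM, without overlap (log2 ratio 0.37, SE 0.09, limma adjusted p = 0.190), and was picked with its values in view.

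The 2 other abundant unigenes of this list were a kynurenine formamidase, which releases formate during tryptophan breakdown, and an aminomethyltransferase of the glycine cleavage system. DN8410_c1_g1, the formamidase, had 99.3 ± 9.21 and 102 ± 1.95 FPKM (log2 ratio 0.04, limma adjusted p = 0.865). DN5990_c0_g3, the aminomethyltransferase, is only 262 bases long and had 121 ± 50.1 and 88.3 ± 33.7 FPKM (log2 ratio −0.43, SE 0.44, limma adjusted p = 0.654). DN5990_c0_g1, a longer aminomethyltransferase unigene of the same component (2871 bases), was picked with its values in view. It had 46.7 ± 5.97 and 44.1 ± 4.86 FPKM (log2 ratio −0.08, limma adjusted p = 0.814). The groups overlapped in all of these.

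In the list of 21 unigenes for glutamate and 4-aminobutyrate, again 0 were higher and 0 lower at the study's thresholds, with a median log2 ratio of 0.08. Glutamine synthetase, which adds ammonia to glutamate, was the most abundant. DN5870_c0_g1 stood at 776.47, 779.85 and 789 FPKM in immature against 543.28, 510.03 and 503.48 FPKM in mature bottles 1, 2 and 3. Each group was tight and they lay far apart, yet the log2 ratio of −0.59 (SE 0.11) did not pass (limma adjusted p = 0.131). The second glutamine synthetase unigene, DN2702_c0_g1, was much lower, at 3.77 ± 1.40 and 6.34 ± 2.22 FPKM (SD, n = 3), with overlapping groups and a log2 ratio of 0.62 (SE 0.35, limma adjusted p = 0.436). The lowest log2 ratio in the list, −0.61 (SE 0.24, limma adjusted p = 0.315), belonged to DN1796_c0_g1, a folylpolyglutamate synthase that was taken in by the words glutamate synthase and acts on folate. DN3772_c0_g1, picked with its values in view, has the same name and Nr protein. Its log2 ratio was −0.49 (SE 0.13, limma adjusted p = 0.199), without overlap. Both are among the 10 list unigenes that were lower at an unadjusted limma p under 0.05.

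Succinate-semialdehyde dehydrogenase, the last enzyme of the path that 4-aminobutyrate enters, overlapped between the groups. DN10130_c0_g1 stood at 438, 271.7 and 405.08 FPKM in immature against 286.07, 389.92 and 398.77 FPKM in mature bottles 1, 2 and 3. DN4707_c0_g1, matched to the same Nr protein, stood at 436.76, 249.43 and 399.35 FPKM against 260.13, 409.56 and 403.54 FPKM. Immature bottle 2 and mature bottle 1 were low in both unigenes, and the log2 ratios were −0.04 (SE 0.23, limma adjusted p = 0.949) and −0.01 (SE 0.28, limma adjusted p = 0.994). Without mature bottle 1 they turned to 0.12 and 0.21 (limma adjusted p = 0.815 and 0.703). The intermediate enzyme, 4-aminobutyrate aminotransferase, was named on 0 unigenes. DN8915_c0_g1, which carries the KEGG orthologue of that enzyme and was picked with its values in view, stood at 101 ± 5.39 and 102 ± 0.170 FPKM (SD, n = 3). Of the 42 enzymes listed, 13 were named on no unigene, among them oxalate oxidase and oxaloacetase.

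**Figure D4:**
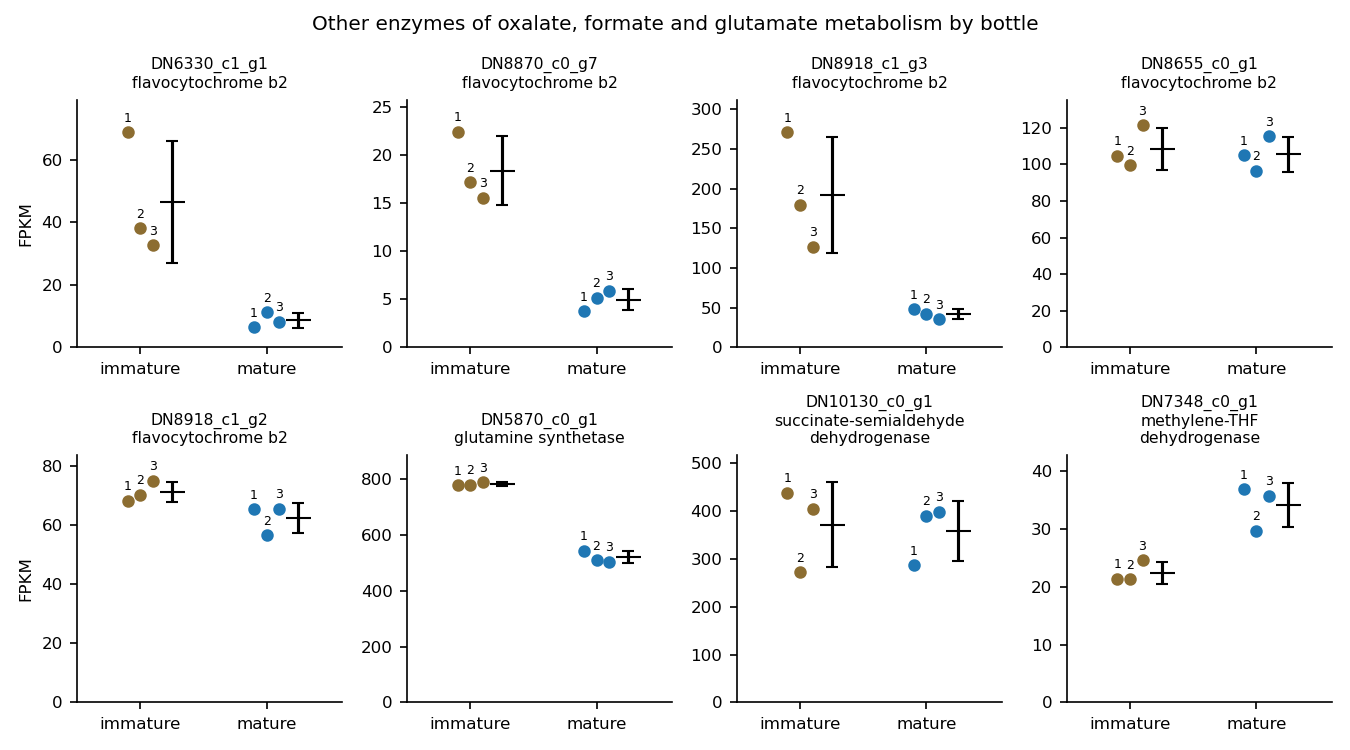
FPKM (vertical axis, linear, own scale in each panel) of 8 unigenes of the 3 lists in immature and mature bottles, with each point 1 bottle labelled 1 to 3 and the bar the mean ± SD (n = 3). Flavocytochrome b2 DN8918_c1_g3 goes from 192 to 41.7 FPKM and glutamine synthetase from 782 to 519 FPKM, while succinate-semialdehyde dehydrogenase overlaps between the groups.

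For 1 unigene of each enzyme, the nearest patterns were sought among named unigenes of at least 500 bases and a mean FPKM of at least 5, as the smallest root mean square difference of log2(FPKM + 1), centred on each unigene's own mean, over the 6 libraries. Nearest to DN579_c0_g1 among 5886 unigenes were a protein-glutamate O-methyltransferase (DN5232_c0_g1, 0.107), the folate synthesis protein fol1 (DN2608_c0_g1, 0.131) and the other glutamate decarboxylase DN4380_c0_g1 (0.144), where the median of all was 0.540. Nearest to DN8634_c0_g1 among 5885 unigenes were the vacuolar sorting protein SNF8 (DN6935_c1_g1, 0.202), an asparagine tRNA ligase (DN8995_c0_g2, 0.208) and a 1,4-alpha-glucan-branching enzyme (DN6182_c0_g1, 0.217), where the median was 0.830. The first of these stood at 746.44, 514.43 and 731.74 FPKM in immature against 714.85, 1658.97 and 1633.37 FPKM in mature bottles 1, 2 and 3, with the same low mature bottle 1.

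Nearest to DN6331_c0_g1 were another 1,4-alpha-glucan-branching enzyme (DN4658_c0_g1, 0.185), a protein matched to argonaute-3 (DN6547_c1_g2, 0.187) and its component neighbour DN6331_c0_g2 (0.193), where the median was 0.711. The branching enzyme, which adds side chains to glycogen, stood at 60.11, 42.88 and 42.83 FPKM in immature against 74.71, 122.15 and 142.42 FPKM in mature bottles. These distances describe 6 libraries and include the difference between the groups, and the libraries share any difference of a whole bottle.

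**Figure D5:**
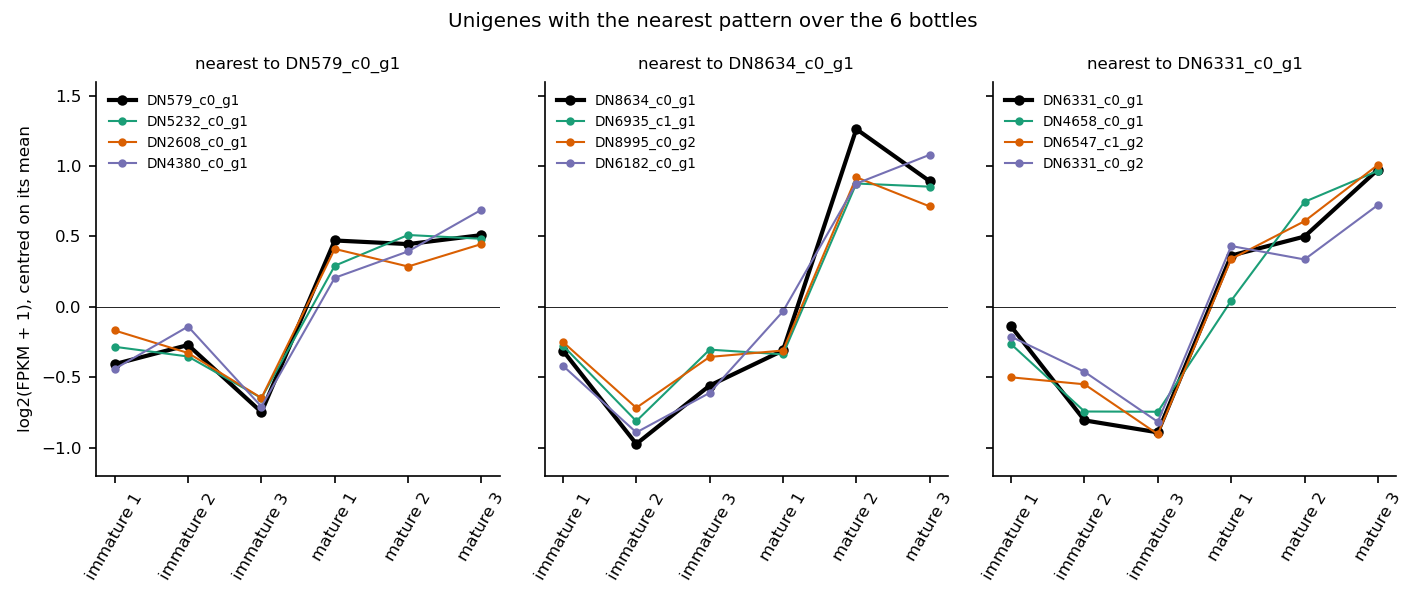
Log2(FPKM + 1), centred on each unigene's mean (vertical axis), in the 6 bottles (horizontal axis) for DN579_c0_g1, DN8634_c0_g1 and DN6331_c0_g1 in black and the 3 unigenes nearest to each in colour. The unigenes around DN8634_c0_g1 share its low mature bottle 1, and those around DN579_c0_g1 stay within 0.144 of it by root mean square difference.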

How the data were processed

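RNA of 3 immature and 3 mature bottles was sequenced from stranded libraries. The authors removed adapters and low-quality and duplicate reads with cutadapt, assembled clean reads with Trinity, reduced redundancy with TGICL, kept the longest isoform of each subcomponent and estimated abundance with RSEM. Whether the counting used strand is not given in the sources used here. The deposited values are FPKM with 2 decimals for 17030 unigenes, beside the deposited unigene length and database matches, whose other measure is bases. The study's own comparison used DESeq2, which needs read counts and was not run here. From that comparison the paper lists DN579_c0_g1 and DN8634_c0_g1 among genes significantly upregulated in mature mycelia. On the log2(FPKM + 1) scale used here, DN579_c0_g1 had a log2 ratio of 0.95, under the study's limit of 1.

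The 6 columns were mapped to groups by name. Groups were compared with limma 3.58.1 in R 4.3.3 (trend=TRUE, two-sided) on log2(FPKM + 1) for the 16496 unigenes of mean FPKM above 1, with Benjamini-Hochberg adjustment over all of them, and the method was tested on simulated data. Ratios are on that scale and understate changes of low unigenes. The paper reports clean reads per library, but the fragments counted for each unigene are not given, so no counting intervals are shown.

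The 7 unigenes and the word lists were chosen with earlier results of these data known. Named beside them were all other unigenes of the 3 enzymes; in each list those past a threshold, the 3 most abundant, and the highest and lowest log2 ratio at a mean FPKM of at least 5; and the 3 nearest patterns of 1 unigene per enzyme. Exceptions are marked. Alternatives were pseudocounts of 0.1 and 0.5, no filter and a mean FPKM above 5, 3 other scalings, 2 other variance priors, a replicate block, unigenes of at least 500 bases, and leaving out each bottle. Figures used Python 3.11.15 and matplotlib 3.10.9.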

Additional observations from a re-analysis of the deposited data

How the results depend on the processing

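The log2 ratios of the 7 unigenes moved by less than their spread between bottles under the other pseudocounts and scalings. The settings of filter, variance prior, replicate block and length cannot change a log2 ratio here, only its SE and p, so the same ratio under them shows nothing. Both kinds together were 11 settings for 5 unigenes, 10 for DN579_c0_g1 (under 500 bases) and 9 for DN5993_c1_g5 (also under a mean FPKM of 5). DN579_c0_g1 stayed between 0.93 and 0.99, DN8634_c0_g1 between 1.21 and 1.27 and DN6331_c0_g1 between 1.17 and 1.26. Leaving out each bottle in turn gave 0.81 to 1.05 for DN579_c0_g1, no less than 0.72 for DN4380_c0_g1, 0.91 to 1.69 for DN8634_c0_g1 and 1.04 to 1.46 for DN6331_c0_g1. It turned the sign of DN9312_c0_g2 (−0.00 to 0.31), DN5993_c1_g1 (−0.01 to 0.51) and DN5993_c1_g5 (−1.24 to 0.74). Family ratios of mature to immature, with each bottle left out in turn, ranged from 1.49 to 1.56 for glutamate decarboxylase, from 1.16 to 1.63 for oxalate decarboxylase and from 2.01 to 2.81 for formate dehydrogenase. The family sums are over unigenes, so pieces of the same gene are counted separately. The count of list unigenes past the study's thresholds was 3 under every setting run. The count at an adjusted p under 0.05 was 0 in the main comparison and 3 with unigenes of at least 500 bases alone, where that count over all unigenes went from 11 to 101 and the cause was not tested. It was 0 under every other setting run, leaving out each bottle included. With the replicate block these counts were 3 and 0, and the adjusted p of the 3 flavocytochromes b2 was 0.216 to 0.319. Same-numbered bottles did not deviate together (r = −0.09, −0.04 and −0.01 across unigenes). Whether they shared a step of handling was not tested. Depth limits the values of DN5993_c1_g5 most, since its lowest levels lie near the smallest values of unigenes of its length.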

Other observations

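DN5993_c1_g1 and DN5993_c1_g5 shared their component with 3 unigenes that lack a Swiss-Prot name. Of these, DN5993_c1_g4 averaged 23.5 ± 2.70 FPKM in immature against 27.4 ± 0.615 FPKM in mature bottles (SD, n = 3), with no overlap, and DN5993_c1_g2 and DN5993_c1_g3 overlapped between the groups. The component of DN9312_c0_g2 also held 2 unigenes matched to alpha-galactosidase D, an enzyme that removes galactose from plant sugars. DN9312_c0_g4 had 12.8 ± 0.171 and 9.29 ± 1.43 FPKM, with every mature bottle below every immature bottle. DN9312_c0_g1 had 50.8 ± 7.36 and 45.9 ± 4.60 FPKM, with overlapping groups. These unigenes were named after their values were seen, and no test was made of them.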
